A study of Rattus norvegicus with 6 samples.

Results

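The genes described here are the aquaporins, which are the water channels of cell membranes, and the vasopressin receptors that govern some of them in the rat kidney inner medulla. The members are Aqp2, Aqp4, Aqp7, Aqp8, Aqp11, Avpr2 and Avpr1a, taken as the probe sets whose only gene symbol in the annotation of the array was 1 of these names. They are 7 of the 14168 genes compared, and each was read by 1 probe set. All rats were male Sprague-Dawley animals of 200 to 250 g on a fixed daily diet with free water, and each carried an osmotic minipump under the skin of the neck. In the withdrawal group the pump delivered dDAVP at 40 ng/h for 5 d, was then removed under light enflurane anaesthesia, and tissue was taken 3 h later. The dDAVP group received the same dose for 5 d and kept the pump. In the vehicle group the pump held saline, infused at 1 µl/h over 5 d. Each group holds 2 whole-transcript arrays of total RNA, 6 in all. The labels do not give the animals' ages, nor that the arrays of a group come from separate animals, so p-values measure only the spread between these arrays. Anaesthesia and surgery came with pump removal in the withdrawal group, and their effect and that of the loss of dDAVP cannot be told apart.

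Vasopressin reaches the principal cells of the collecting duct from the blood and binds the V2 receptor, encoded by Avpr2. This receptor couples to the stimulatory G protein and adenylyl cyclase, and the cyclic AMP formed activates protein kinase A, which phosphorylates the Aqp2 channel and brings vesicles that carry it to the apical membrane. Water that enters through Aqp2 leaves the cell at the basolateral side through Aqp3 and Aqp4. Over longer times vasopressin also raises Aqp2 transcription. dDAVP (desmopressin) is a synthetic vasopressin analog that is selective for the V2 receptor over the V1a receptor, encoded by Avpr1a, which couples to calcium signalling.

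The values are log2 of the deposited array intensities, and levels of different genes are not set against each other because each probe set responds with its own efficiency. The arrays' median log2 intensities ran from 7.29 to 7.51 and were lowest in the dDAVP arrays, at 7.29 and 7.37. The median difference over all genes was accordingly -0.11 for dDAVP minus vehicle, 0.14 for withdrawal minus dDAVP and 0.03 for withdrawal minus vehicle. Cyclic loess, a smoothing normalization between arrays, brought these medians to 0.00 in size, and member values after loess are given where they moved by more than 0.1 or changed sign. Vehicle replicate 1 and dDAVP replicate 2 stood apart from the other 4 arrays by more than 1 log2 unit in 40 genes, none of which is a member. No other pair of arrays did so in more than 2 genes. All 10 principal cell markers were measured, and the lowest log2 value of any of them was 6.79. Their summed intensity was 25765 and 22777 in withdrawal, 23819 and 20838 in dDAVP, and 20604 and 25733 in vehicle.

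No member passed an adjusted p of 0.05 in any comparison, and no gene of the table did, so that the share of all genes called was 0.0% for dDAVP minus vehicle, 0.0% for withdrawal minus dDAVP, 0.0% for withdrawal minus vehicle and 0.0% for any difference among the 3 groups (limma, Benjamini-Hochberg adjustment over 14168 genes). At an unadjusted p under 0.05, which is not corrected for the number of genes, dDAVP minus vehicle held 0 of the 7 members against 7.43% of all genes (0.572% higher and 6.85% lower). Withdrawal minus dDAVP held 2 members against 19.0% of all genes. Avpr2 was lower, as were 1.64% of all genes, and Avpr1a was higher, as were 17.3%. This split of all genes went with the scaling: after loess withdrawal minus dDAVP had 452 genes higher and 470 lower at the same threshold, against 2454 and 232 as deposited, and dDAVP minus vehicle had 252 and 208, against 81 and 971. Neither member kept an unadjusted p under 0.05 after loess. In withdrawal minus dDAVP Avpr2 then differed by -0.44 ± 0.19 (SE) and Avpr1a by 0.35 ± 0.14, each with an adjusted p of 0.725 (limma). Withdrawal minus vehicle held 0 members against 1.79% of all genes (0.642% higher and 1.14% lower). The share at this threshold for any difference among the groups was 8.64%, and it held 0 members.

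**Figure D1:**
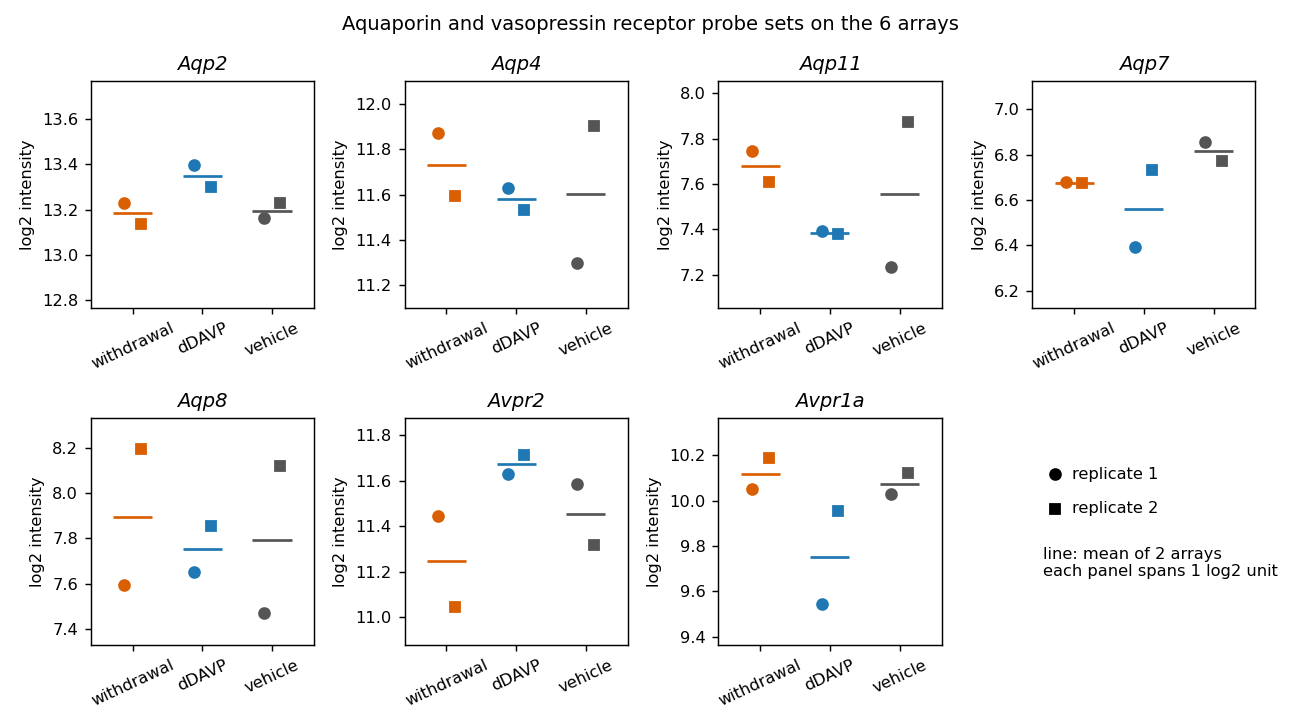
Log2 intensity of each of the 7 members on each array, with withdrawal left, dDAVP in the middle and vehicle right; points are single arrays and bars are the means of 2 arrays. The dDAVP points of Aqp2 (13.40 and 13.30) and Avpr2 (11.63 and 11.71) lie above all other arrays of the same gene, whereas the vehicle points of Aqp4, Aqp8 and Aqp11 lie far apart.

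The V2 receptor gene Avpr2 was highest in both dDAVP arrays. Its log2 intensity was 11.45 and 11.04 in withdrawal, 11.63 and 11.71 in dDAVP, and 11.59 and 11.32 in vehicle. Both dDAVP arrays thus lay above the other 4, while the withdrawal and vehicle arrays overlapped. Means were 11.24 ± 0.28 in withdrawal, 11.67 ± 0.06 in dDAVP and 11.45 ± 0.19 in vehicle (SD, n = 2 each). The withdrawal group was 0.744-fold of the dDAVP group, a log2 difference of -0.43 ± 0.16 (SE) with a 95% interval of -0.82 to -0.03. Its unadjusted p was 0.0381 and its adjusted p 0.260 (limma). In dDAVP minus vehicle the difference was 0.22 ± 0.16 with an interval of -0.18 to 0.62 and an adjusted p of 0.584 (limma). Both comparisons share the dDAVP arrays, so a high value there raises dDAVP minus vehicle and lowers withdrawal minus dDAVP. The difference of withdrawal minus vehicle, which leaves those arrays out, was -0.21 with an interval of -0.60 to 0.19. Both differences of the withdrawal group rested on its replicate 2, and without it withdrawal minus dDAVP was -0.23 and withdrawal minus vehicle -0.01. With 1 array left out, dDAVP minus vehicle ran from 0.09 to 0.35. Without the pair of arrays that stood apart, withdrawal minus dDAVP was -0.39 and withdrawal minus vehicle -0.07.

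Avpr1a, the V1a receptor gene, had the reverse order, with both dDAVP arrays below the other 4. Its values were 10.05 and 10.19 in withdrawal, 9.54 and 9.95 in dDAVP, and 10.03 and 10.12 in vehicle. The dDAVP group was 0.798-fold of vehicle, a log2 difference of -0.33 ± 0.15 with an interval of -0.69 to 0.04 and an adjusted p of 0.549 (limma). Withdrawal was 1.29-fold of dDAVP, a difference of 0.37 ± 0.15 with an interval of 0.00 to 0.74, an unadjusted p of 0.0488 and an adjusted p of 0.262 (limma). Withdrawal and vehicle lay close, with a difference of 0.04 and an interval of -0.33 to 0.41. The low dDAVP mean came mostly from dDAVP replicate 1. Without that array the differences were -0.12 for dDAVP minus vehicle and 0.16 for withdrawal minus dDAVP, and without the pair of arrays that stood apart they were -0.58 and 0.57. Genes in the same of 10 equal classes of mean intensity as Avpr1a had median differences of -0.03 and 0.00 in these comparisons, and after loess Avpr1a differed by -0.30 and 0.35.

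Aqp2, the water channel that vasopressin regulates at the apical membrane, had the same order of groups as Avpr2 but a narrower spread. Its log2 intensity was 13.23 and 13.14 in withdrawal, 13.40 and 13.30 in dDAVP, and 13.16 and 13.23 in vehicle. Both dDAVP arrays lay above the other 4, and withdrawal and vehicle overlapped. The group means were 13.18 ± 0.07 in withdrawal, 13.35 ± 0.07 in dDAVP and 13.19 ± 0.05 in vehicle (SD, n = 2 each). The dDAVP group was 1.11-fold of vehicle, with a 95% interval of 0.948 to 1.31-fold and an adjusted p of 0.558 (limma). Withdrawal was 0.893-fold of dDAVP, with an interval of 0.761 to 1.05-fold and an adjusted p of 0.343 (limma). Between withdrawal and vehicle the log2 difference was -0.01, with an interval of -0.24 to 0.22. The array maximum was between 13.23 and 13.40 log2 units on all 6 arrays, so the Aqp2 probe set lay near or at the top of the measured range. Whether the signal of Aqp2 was compressed there was not tested. In bulk tissue, fewer cells of a type and less RNA per cell cannot be told apart. The principal cell markers had a median difference of -0.07 in dDAVP minus vehicle and 0.25 in withdrawal minus dDAVP, against -0.11 and 0.14 for all genes. In the second, 8 of 10 markers lay above 0, and none had an unadjusted p under 0.05 in either. After loess the marker medians were -0.02 and 0.23, against 0.00 in size for all genes. With the mean of these markers subtracted on each array, the Aqp2 differences were 0.23 ± 0.25 and -0.37 ± 0.25 (SE).

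**Figure D2:**
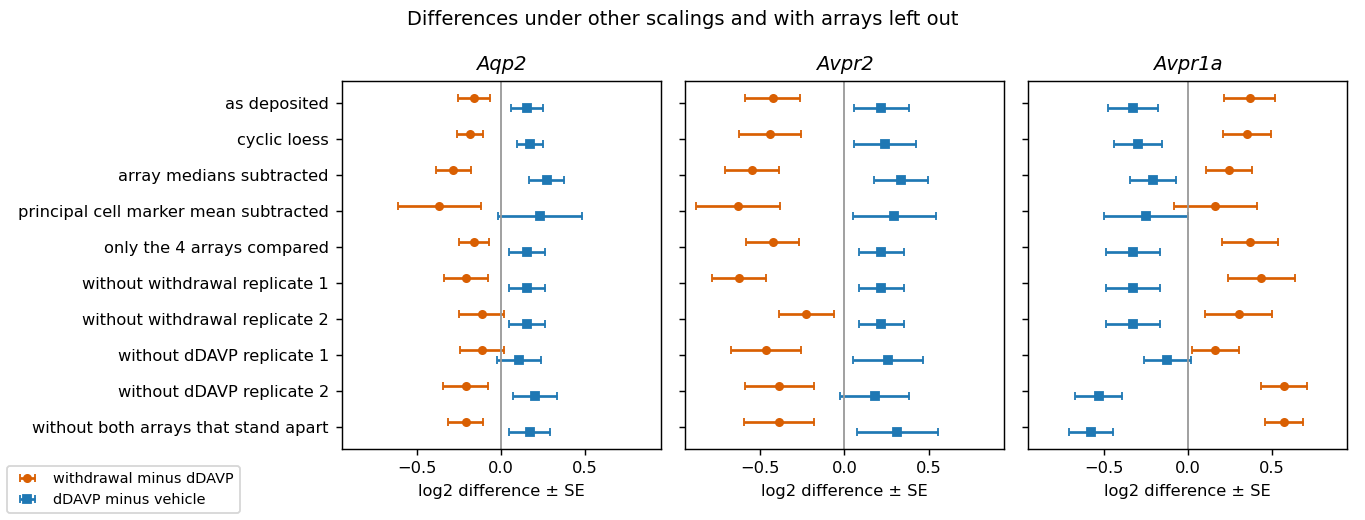
Log2 differences of Aqp2, Avpr2 and Avpr1a (horizontal axis, bars ± SE) for withdrawal minus dDAVP (circles) and dDAVP minus vehicle (squares), with the values as deposited on top and other scalings or left-out arrays beneath. In every setting drawn, circles and squares of a gene lie on opposite sides of 0, and both use the dDAVP arrays; for Avpr1a without dDAVP replicate 1 the values were 0.16 and -0.12.

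Among all genes, 3.14% had both dDAVP arrays above the other 4, against 2 of the 7 members, Aqp2 and Avpr2. In the opposite order, both dDAVP arrays lay below the other 4 in 33.6% of genes and in 1 member, Avpr1a. Median intensity was lowest on the dDAVP arrays, and after loess these shares were 8.6% above and 8.21% below, with the same 3 members in the same orders. For Avpr2 the margin after loess was 11.64 in dDAVP replicate 1 against 11.62 in vehicle replicate 1. With the principal cell marker mean subtracted, where the shares of all genes were not counted, only Aqp2 kept its order. Avpr2 was then 11.75 in vehicle replicate 1 against 11.69 in dDAVP replicate 1. Avpr1a was 10.08 in dDAVP replicate 2 against 9.84 in withdrawal replicate 1. Values below are as deposited unless loess is named. In dDAVP minus vehicle the arrays of the groups did not overlap in 45.4% of genes and in 4 members, that is in 4.8% of genes with dDAVP higher and in 40.6% with dDAVP lower, and the members in question were Aqp2 and Avpr2 higher and Aqp7 and Avpr1a lower. In withdrawal minus dDAVP the corresponding share was 57.6%, against 4 members, with 49.6% higher and 8.06% lower, and Aqp11 and Avpr1a higher and Aqp2 and Avpr2 lower. In withdrawal minus vehicle it was 30.7%, with 17.6% higher and 13.1% lower, and Aqp7 was the single member, lower. After loess the shares higher and lower were 15.2% and 14.8% in dDAVP minus vehicle, 20.3% and 19.1% in withdrawal minus dDAVP, and 16.1% and 16.0% in withdrawal minus vehicle. Aqp7 then overlapped between dDAVP and vehicle. Avpr1a was higher without overlap in withdrawal minus vehicle, but barely, at 10.074 in withdrawal replicate 1 against 10.073 in vehicle replicate 2.

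As deposited, Aqp2 and Avpr2 were the members with both dDAVP arrays on top and Avpr1a the one with both at the bottom. For this reason the 250 bases before the annotated start of these genes are shown, from RefSeq on assembly GRCr8. They are printed 5′ to 3′ on the strand of the gene, which is the plus strand for each. Capitals mark the half-site of the cyclic AMP response element, TGACG on either strand, the short motif bound by the protein kinase A target Creb1.
Aqp2, chr7:132590036-132590285: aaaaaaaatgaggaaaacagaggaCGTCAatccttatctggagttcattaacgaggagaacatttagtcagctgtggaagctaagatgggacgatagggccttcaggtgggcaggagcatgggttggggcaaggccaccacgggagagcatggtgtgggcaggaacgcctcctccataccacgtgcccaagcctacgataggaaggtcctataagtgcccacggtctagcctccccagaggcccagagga
Avpr2, chrX:156784889-156785138: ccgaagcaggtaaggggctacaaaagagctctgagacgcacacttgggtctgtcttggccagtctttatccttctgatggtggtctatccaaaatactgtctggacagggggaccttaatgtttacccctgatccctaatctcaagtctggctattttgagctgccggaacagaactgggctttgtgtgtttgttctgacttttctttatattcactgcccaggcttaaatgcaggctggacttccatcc
Avpr1a, chr7:59999493-59999742: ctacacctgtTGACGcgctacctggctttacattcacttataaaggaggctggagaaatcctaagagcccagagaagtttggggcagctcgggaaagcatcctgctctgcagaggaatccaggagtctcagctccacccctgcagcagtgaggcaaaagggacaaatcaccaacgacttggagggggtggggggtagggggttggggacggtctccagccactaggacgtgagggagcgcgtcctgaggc
The Aqp2 window holds 1 half-site, read as CGTCA on the gene's strand and thus TGACG on the other, which begins 226 bases before the start. It also holds the GATA motif AGATAA on the opposite strand, 217 bases before the start. The Avpr1a window holds 1 half-site, TGACG, 240 bases before the start, and a TATAAA motif 212 bases before it. The Avpr2 window holds no half-site, and a TATAAA motif on the opposite strand 45 bases before the start. Of 33469 promoter windows of the same length, 18.2% hold a half-site on either strand, 1.59% the full element TGACGTCA, which contains the half-site on both strands, 10.3% AGATAA and 12.9% TATAAA. The full element, and the AP-1 motif TGANTCA that 6.34% of windows hold, were found in none of the 3 windows. The windows of Aqp4, with 2 annotated starts, Aqp8 and Aqp11 hold no half-site either. Half-sites were thus found in the windows of Aqp2 and Avpr1a and not in that of Avpr2. These matches of letters describe the windows without showing that a factor binds there, and a link to the array values was not tested.

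Aqp4, the constitutive basolateral water channel of the principal cell, differed more within the vehicle group than between groups. It had 11.87 and 11.59 in withdrawal, 11.63 and 11.53 in dDAVP, and 11.30 and 11.90 in vehicle. The lowest and the highest of the 6 values were both vehicle arrays. Means were 11.73 ± 0.20 in withdrawal, 11.58 ± 0.07 in dDAVP and 11.60 ± 0.43 in vehicle (SD, n = 2 each). The difference of dDAVP minus vehicle was -0.02 with an interval of -0.53 to 0.49, and that of withdrawal minus dDAVP 0.15 with an interval of -0.35 to 0.66. These intervals are wide enough to hold differences of either sign larger than those of Aqp2.

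Aqp11, an intracellular aquaporin whose loss gives cystic kidneys in mice, had the tightest dDAVP pair. Its values were 7.75 and 7.61 in withdrawal, 7.39 and 7.38 in dDAVP, and 7.23 and 7.87 in vehicle. Both withdrawal arrays lay above both dDAVP arrays, and the vehicle arrays lay on either side of all the others. The difference of withdrawal minus dDAVP was 0.29 ± 0.20, with an interval of -0.20 to 0.79 and an adjusted p of 0.405 (limma), against a median of 0.15 among genes of the same intensity class. After loess it was 0.12. In dDAVP minus vehicle the difference was -0.17, or -0.01 after loess, and it was -0.49 without vehicle replicate 1 and 0.15 without vehicle replicate 2.

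Aqp8, an intracellular water channel also found in the liver, pancreas and colon, had no separation of groups. It had 7.59 and 8.19 in withdrawal, 7.65 and 7.86 in dDAVP, and 7.47 and 8.12 in vehicle. The arrays of all 3 groups overlapped. Differences were -0.04 for dDAVP minus vehicle, 0.14 for withdrawal minus dDAVP and 0.10 for withdrawal minus vehicle, with intervals reaching from -0.70 at the lowest to 0.80 at the highest. After loess the first was 0.09 and the second 0.00.

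Aqp7, an aquaglyceroporin that carries glycerol as well as water and is known from fat cells and the late proximal tubule, was dim. It had 6.68 and 6.68 in withdrawal, 6.39 and 6.73 in dDAVP, and 6.86 and 6.77 in vehicle. Both withdrawal and both dDAVP arrays lay below both vehicle arrays. The difference of dDAVP minus vehicle was -0.25 ± 0.13 with an adjusted p of 0.549 (limma), against a median of -0.18 among genes of the same intensity class, and -0.09 after loess. It was -0.08 without dDAVP replicate 1 and -0.42 without dDAVP replicate 2. Withdrawal minus dDAVP was 0.11, or -0.10 after loess, and withdrawal minus vehicle was -0.14. Of the other cell types that hold Aqp7, all 11 proximal tubule markers were measured, with summed intensities of 1715 and 1668 in withdrawal, 1480 and 1813 in dDAVP, and 1977 and 1715 in vehicle. All 9 adipocyte markers were measured too, with sums of 3151 and 3822 in withdrawal, 3280 and 4331 in dDAVP, and 3829 and 4171 in vehicle. The lowest log2 value of any marker was 6.15 in the proximal tubule list and 6.07 in the adipocyte list. The arrays' median log2 intensities ran from 7.29 to 7.51, and the part of these markers in the Aqp7 values was not tested.

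**Figure D3:**
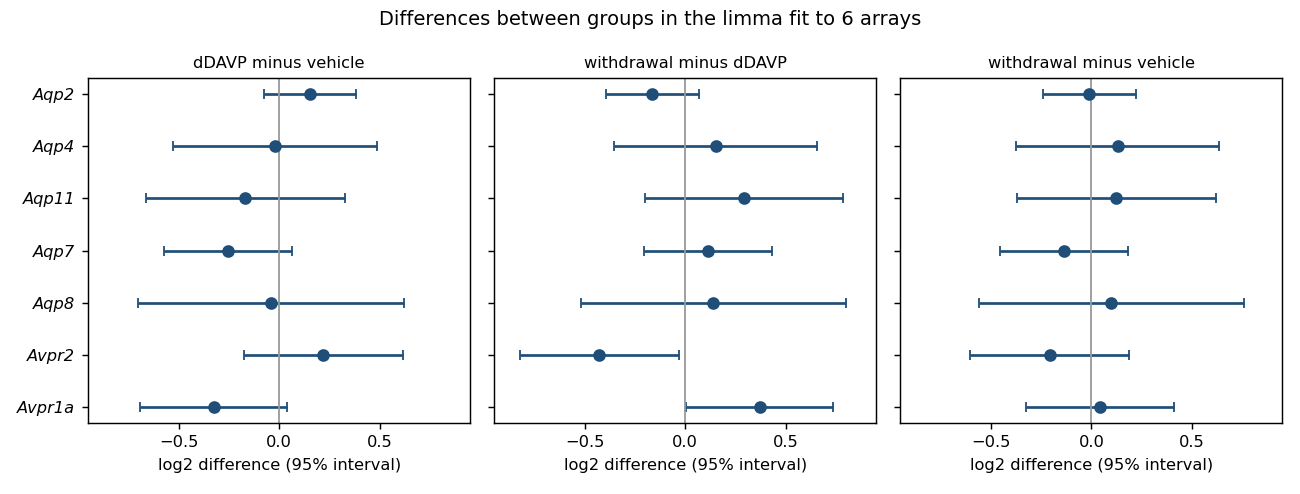
Log2 differences between groups (horizontal axis) of the 7 members in the limma fit to 6 arrays, with 95% intervals as bars and 1 panel per comparison. The intervals of Avpr2 (-0.82 to -0.03) and Avpr1a (0.00 to 0.74) in withdrawal minus dDAVP lie on one side of 0, without adjustment for the number of genes, and the other 19 of 21 intervals include 0. The values are as deposited, and after loess neither gene had an unadjusted p under 0.05 in that comparison.

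The 2 arrays of the vehicle group differed strongly in a subset of members. The gap between them was 0.60 for Aqp4, 0.65 for Aqp8 and 0.64 for Aqp11, against a median gap of 0.15 over all genes, and 3.16%, 2.57% and 2.76% of genes had a larger one. In each of these 3 genes vehicle replicate 1 was the lowest of the 6 arrays. The Aqp2 gap in the same group was 0.07, that of Avpr1a 0.09 and that of Avpr2 0.27. Aqp8 had a similar gap of 0.60 in withdrawal, where the median over all genes was 0.10. The largest gap within a group exceeded the largest difference between group means in 5 of the 7 members, the exceptions being Aqp2 and Avpr2. Of the 10 principal cell markers, 7 were also lower in vehicle replicate 1 than in replicate 2, with summed intensities of 20604 and 25733, and 3 were higher there (Scnn1b, Scnn1g and Hsd11b2). Intercalated cell markers, 8 of 9 measured and with a lowest log2 value of 6.47, were all lower in vehicle replicate 1 than in replicate 2. They summed to 6462 and 3804 in withdrawal, 5060 and 4901 in dDAVP, and 3101 and 5842 in vehicle. With the mean of the principal cell markers subtracted, the vehicle gaps were 0.31 for Aqp4, 0.36 for Aqp8 and 0.35 for Aqp11, and after loess they were 0.52, 0.68 and 0.70. That subtraction widened the vehicle gaps of Aqp2 to 0.23 and of Avpr2 to 0.56.

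**Figure D4:**
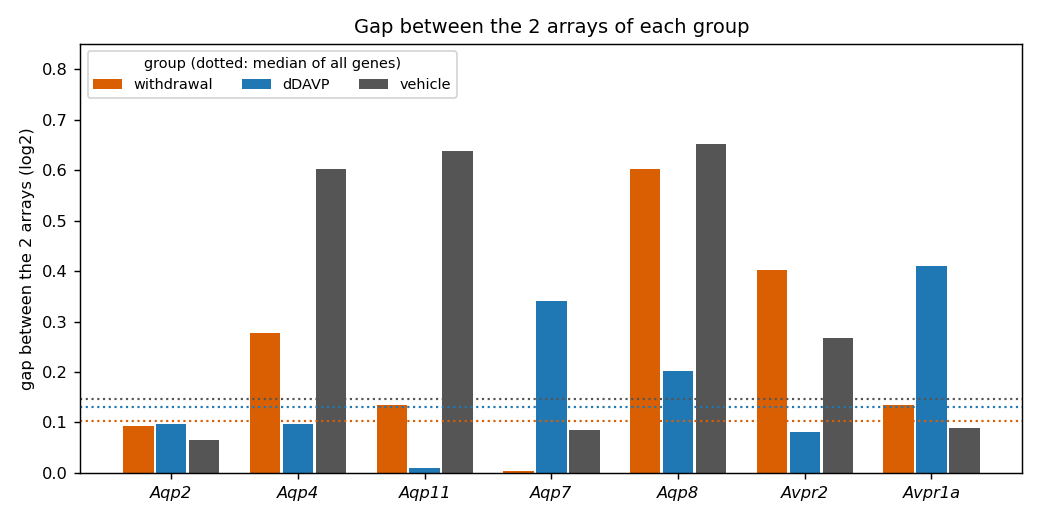
Absolute log2 gap between the 2 arrays of a group for each member (bars from 0), with withdrawal, dDAVP and vehicle side by side and dotted lines at the median gap of all genes (0.10, 0.13 and 0.15). The vehicle bars of Aqp4, Aqp8 and Aqp11 reach 0.60 to 0.65, and the bars of Aqp2 are at most 0.10.

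Of the other aquaporins, 5 further genes were measured among a list of 12, and Aqp1 and Aqp3 are not analysed here. Aqp6, an aquaporin of intracellular vesicles in acid-secreting intercalated cells, spread most. It had 8.14 and 7.59 in withdrawal, 8.78 and 7.97 in dDAVP, and 7.32 and 8.02 in vehicle. The dDAVP and vehicle arrays overlapped, and the difference of 0.71 ± 0.35 had an adjusted p of 0.549 (limma). Vehicle replicate 1 was again the lowest of the 6 arrays, and without it the difference was 0.35. The sums of the intercalated cell markers given above were also lowest on that array, and their part in the Aqp6 values was not tested. Mip, the aquaporin of the lens, Aqp5, of glands and lung, Aqp9, of the liver, and Aqp12a, of the pancreas, differed by -0.19, -0.25, -0.11 and -0.16 in dDAVP minus vehicle. The same genes differed by 0.26, 0.28, 0.17 and 0.17 in withdrawal minus dDAVP, where limma gave Mip (unadjusted p = 0.0307) and Aqp5 (unadjusted p = 0.0377) an adjusted p of 0.260 each. After loess these differences were 0.06, 0.12, -0.04 and -0.04, with the sign turned for Aqp9 and Aqp12a.

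The related hormone genes Avp, which encodes vasopressin, and Oxt, which encodes oxytocin, and the receptors Avpr1b, of the pituitary, and Oxtr, for oxytocin, all had dDAVP means below those of both other groups. Oxtr had 7.69 and 7.48 in withdrawal, 7.16 and 7.24 in dDAVP, and 7.61 and 7.50 in vehicle. For Oxtr both dDAVP arrays thus lay below the other 4, as in 33.6% of all genes. Its difference was -0.36 ± 0.11 for dDAVP minus vehicle (unadjusted p = 0.0179, adjusted p = 0.549, limma) and 0.39 ± 0.11 for withdrawal minus dDAVP (unadjusted p = 0.0128, adjusted p = 0.260, limma). Genes of the same intensity class had medians of -0.15 and 0.15, and after loess Oxtr differed by -0.20 and 0.21. Avp, Oxt and Avpr1b differed by -0.24, -0.23 and -0.24 in dDAVP minus vehicle, and each by -0.07 after loess. Of the 4 genes, Oxtr and Avp had an unadjusted p under 0.05 in each of these comparisons.

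The steps between the V2 receptor and protein kinase A were read by 24 of 24 listed genes. In dDAVP minus vehicle none had an unadjusted p under 0.05, with 12 above and 12 below 0 and a median of -0.00 against -0.11 for all genes. The smallest p were those of Akap11, an anchoring protein of the kinase (-0.22 ± 0.11), and of Prkacb, its catalytic subunit beta (0.20 ± 0.12). After loess the list medians were 0.05 in dDAVP minus vehicle and -0.15 in withdrawal minus dDAVP, against 0.00 in size for all genes. In withdrawal minus dDAVP as deposited the median was -0.05 against 0.14 for all genes. There 3 of the 24 genes were lower and 1 higher at an unadjusted p under 0.05, against 1.64% and 17.3% of all genes. After loess 470 of all genes were lower and 452 higher at that threshold. None of the listed genes had an adjusted p under 0.260 in limma as deposited. Prkacb had 9.17 and 8.89 in withdrawal, 9.58 and 9.44 in dDAVP, and 9.32 and 9.30 in vehicle. Both its dDAVP arrays were above the other 4, as for Aqp2 and Avpr2. Of the 24 listed genes 2 had this order (Prkacb and Prkar2a), against 3.14% of all genes, or 8.6% after loess. The opposite order was that of 2 listed genes (Pde4a and Arrb2), against 33.6% of all genes, or 8.21% after loess. For Prkacb withdrawal minus dDAVP was -0.48 ± 0.12 (unadjusted p = 0.0076, adjusted p = 0.260, limma). Grk5, a kinase that desensitises receptors, and Adcy6, the main adenylyl cyclase behind the V2 receptor, differed by -0.29 ± 0.10 and -0.26 ± 0.11. Akap12, an anchoring protein, was the higher one at 0.57 ± 0.23. In withdrawal minus vehicle Grk5, Adcy6 and Akap11 each differed by -0.27, with unadjusted p of 0.0373, 0.0443 and 0.0449 and an adjusted p of 0.995 in limma.

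Genes that move and retrieve Aqp2 vesicles were read by 26 of 28 listed, with medians of -0.08, 0.01 and -0.02 in dDAVP minus vehicle, withdrawal minus dDAVP and withdrawal minus vehicle. Rab11fip2, an adaptor of recycling vesicles, was the single gene with an unadjusted p under 0.05 in the first and the second. It had 8.45 and 8.70 in withdrawal, 8.03 and 8.32 in dDAVP, and 8.52 and 8.70 in vehicle, with differences of -0.43 ± 0.15 for dDAVP minus vehicle and 0.40 ± 0.15 for withdrawal minus dDAVP. In withdrawal minus vehicle no gene of the list had an unadjusted p under 0.05, and Dnm2, the dynamin of vesicle scission (0.16), and Ezr, a linker of membrane and actin (0.21), had the smallest.

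Transcription factors that act on the Aqp2 promoter or in the collecting duct were read by 15 of 17 listed, with medians of -0.04, 0.20 and -0.08 in the same order. Nfat5, the factor that answers high tonicity and drives Aqp2 transcription, had 9.52 and 9.40 in withdrawal, 8.88 and 9.38 in dDAVP, and 9.82 and 9.60 in vehicle. Both dDAVP arrays lay below the other 4, as in 33.6% of all genes. They were 0.50 apart, and dDAVP replicate 2 at 9.38 was close to withdrawal replicate 2 at 9.40. For Nfat5 dDAVP minus vehicle was -0.58 ± 0.18 (unadjusted p = 0.0180, adjusted p = 0.549, limma), or -0.54 after loess. Grhl2, a factor of tight epithelia, differed by -0.33 ± 0.11 in the same comparison and by -0.16 after loess. In withdrawal minus dDAVP, Rela (-0.22) and Nfat5 (0.33) had the smallest p, and in withdrawal minus vehicle Junb (0.55) and Nr3c1 (-0.15), the glucocorticoid receptor, with no gene at an unadjusted p under 0.05.

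Receptors that oppose vasopressin in the collecting duct were read by 10 of 12 listed, Ednra and Ednrb being not analysed here, with medians of -0.04, 0.02 and -0.01. Adra2b, an alpha-2 adrenergic receptor, had 7.09 and 7.16 in withdrawal, 6.67 and 6.76 in dDAVP, and 7.04 and 6.88 in vehicle. Withdrawal minus dDAVP was 0.41 ± 0.10 (unadjusted p = 0.0060, adjusted p = 0.260, limma) and 0.20 after loess. P2ry4, a nucleotide receptor, differed by 0.23 ± 0.09 in that comparison, and genes of the same intensity class had a median of 0.23. Ptger3, the EP3 receptor of prostaglandin E2, differed by 0.26 in dDAVP minus vehicle and 0.31 in withdrawal minus vehicle, neither at an unadjusted p under 0.05.

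**Figure D5:**
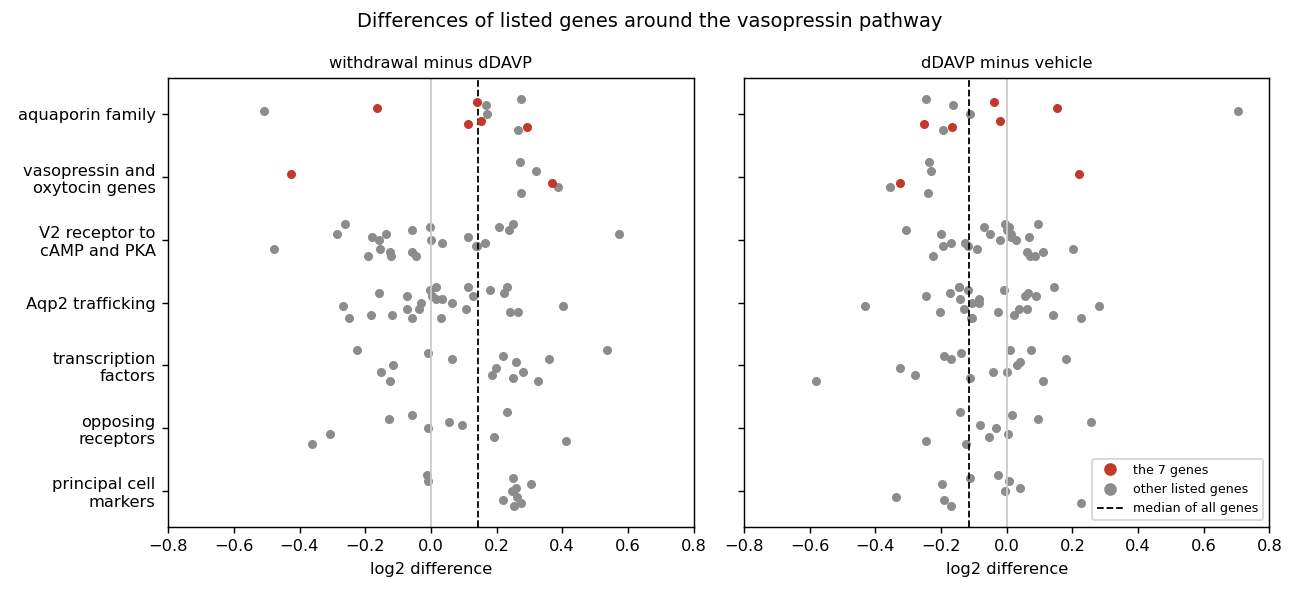
Log2 differences of the genes in the vasopressin lists (points, 1 per gene) and the principal cell markers for withdrawal minus dDAVP (left) and dDAVP minus vehicle (right), with the 7 members in red and the median of all genes (0.14 and -0.11) as a dashed line. The genes between the V2 receptor and protein kinase A lie on both sides of 0 in both panels. Their medians are -0.05 and -0.00, against 0.14 and -0.11 for all genes. In the left panel 8 of 10 principal cell markers lie above 0.

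The genes with the most similar pattern over the 6 arrays were found by the root mean square distance between profiles, each centred on its own mean, among genes with a range of at least 0.5 times that of the member. For Aqp2 they were Rpl30, a ribosomal protein (0.021), Slmap, a membrane-anchored protein (0.024), and Nudt21, of messenger RNA cleavage (0.026), against a median distance of 0.189 over 13781 genes. For Avpr2 they were Capn1, a calcium-dependent protease (0.040), Pfkl, a phosphofructokinase (0.055), and Ift46, of intraflagellar transport (0.063), against a median of 0.319 over 8400 genes. For Aqp4 they were Fhl4 (0.052), Ndrg3 (0.052) and Net1, an exchange factor of RhoA (0.062), against a median of 0.259 over 9663 genes. The vehicle arrays held both extremes of the Aqp4 pattern. Fhl4 had 8.41 and 8.11 in withdrawal, 8.11 and 7.95 in dDAVP, and 7.87 and 8.34 in vehicle, so vehicle replicate 1 was the lowest of its 6 arrays too.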

How the data were processed

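Total RNA extracted with Trizol from the inner medulla, 300 ng per array, was labelled for whole-transcript arrays, per the labels' protocols. The authors deposited 1 intensity per probe set and array, summarised with RMA per the submitters' processing notes. The intensities run from 30.2 to 10778.7 on a linear scale, so log2 was taken. The version of RMA is not given in the sources used here, and detection calls and scan dates were not used. Of 28524 probe sets, 14947 carry 1 gene symbol, 318 several and 13259 are not listed in the annotation of the array. The probe set with the highest mean stood for a gene, and RefSeq GRCr8 changed 0 symbols.

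A single limma 3.58.1 model (R 4.3.3) took in the 6 arrays with a mean for each group, with 3 residual and 3.21 prior degrees of freedom, two-sided tests, and Benjamini-Hochberg adjustment over 14168 genes within each comparison. The test was tested on simulated data. The number of arrays limits the precision. Identical values between 2 arrays made up at most 0.0035% of probe sets. Samples of the same replicate number did not deviate alike: the correlations of same-numbered deviations were -0.11 for withdrawal and dDAVP, -0.00 for withdrawal and vehicle, and -0.62 for dDAVP and vehicle. By the last value, dDAVP replicate 2 tended to deviate from its group mean in the same direction as vehicle replicate 1.

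Members and gene lists were chosen with earlier results of these data known. Genes named are the members, the measured genes of the aquaporin and hormone lists, up to 4 genes of each other function list at an unadjusted p under 0.05 (with none, the 2 smallest p), and the 3 nearest in pattern to Aqp2, Aqp4 and Avpr2. RefSeq promoter windows matched 6 of the 7 members.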

Additional observations from a re-analysis of the deposited data

How the results depend on the processing

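With 2 arrays per group, only large differences could pass. No gene passed as deposited, after cyclic loess, with array medians subtracted, with all probe sets or their mean per gene, without the dimmest 25% of genes, with an intensity trend, with only the arrays compared, or without both arrays that stood apart, whereas the number of genes at an unadjusted p under 0.05 was 1052, 2686 and 253 (dDAVP minus vehicle, withdrawal minus dDAVP, withdrawal minus vehicle; 1224 for any difference) as deposited and 460, 922 and 298 (498) after loess. With the principal cell marker mean subtracted from each array 3, 38 and 41 genes passed (51 for any difference), and no member did. In that fit limma pooled the spread of all genes fully, with the same SE of 0.25 for each member, so these counts are not comparable with the others. Leaving out 1 array gave 0 to 2 genes in dDAVP minus vehicle, 0 to 2 in withdrawal minus dDAVP, 0 in withdrawal minus vehicle and 0 to 2 for any difference, the 2 without dDAVP replicate 1. The cause was not tested. With the replicate number as a block 0 genes passed in any comparison. The same held with the dDAVP numbers crossed, a pairing chosen after seeing the data, and with the block added to loess, also chosen later. The block thus changed no call, but it moved the unadjusted counts. At an unadjusted p under 0.05 there were 490, 1518 and 128 genes with the block, in the order of comparisons above. With the dDAVP numbers crossed there were 1393, 3264 and 736.

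The 21 differences of the members gave 333 values under the alternatives. Of these, 300 kept their direction, 33 reversed, and in none did a member pass. Many of the 300 could not reverse. The fits with all probe sets, their mean per gene, an intensity trend or only the arrays compared repeat the deposited difference. So do the replicate block, the fit without the dimmest 25% of genes and each fit without an array of the group not compared. Left-out arrays moved Avpr2 in withdrawal minus vehicle between -0.41 and -0.0063. The differences that never reversed are those of Aqp2, Aqp7, Avpr2 and Avpr1a in dDAVP minus vehicle, of Aqp2, Aqp11, Avpr2 and Avpr1a in withdrawal minus dDAVP, and of Aqp7 and Avpr2 in withdrawal minus vehicle. With principal cell markers subtracted the reversed values were 0.056 for Aqp4 and 0.036 for Aqp8 in dDAVP minus vehicle, -0.054 for Aqp4, -0.091 for Aqp7 and -0.066 for Aqp8 in withdrawal minus dDAVP, and -0.029 for Aqp8, -0.0038 for Aqp11 and -0.085 for Avpr1a in withdrawal minus vehicle. After loess they were 0.092 for Aqp8 in dDAVP minus vehicle and -0.10 for Aqp7 in withdrawal minus dDAVP. With medians subtracted they were 0.10 for Aqp4 and 0.077 for Aqp8 in dDAVP minus vehicle and -0.0080 for Aqp7 in withdrawal minus dDAVP. Without both arrays that stood apart they were -0.17 for Aqp4, -0.23 for Aqp8, -0.19 for Aqp11 and -0.0014 for Avpr1a in withdrawal minus vehicle. With 1 array left out, dDAVP minus vehicle ran from -0.32 to 0.28 for Aqp4, -0.37 to 0.29 for Aqp8 and -0.49 to 0.15 for Aqp11. Withdrawal minus dDAVP ran from -0.057 to 0.28 for Aqp7 and -0.16 to 0.44 for Aqp8. Withdrawal minus vehicle ran from -0.057 to 0.037 for Aqp2, -0.17 to 0.43 for Aqp4, -0.23 to 0.42 for Aqp8, -0.19 to 0.44 for Aqp11 and -0.024 to 0.11 for Avpr1a. A group left with 1 array was taken to vary like the other groups. Aqp7 was among the dimmest 25% of genes and has no value where these were left out, and a fit of only the arrays compared does not apply to the test over all groups.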
